A study of Mus musculus with 7 samples.

Results

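The 9 genes described here, *Lhx1*, *Pax2*, *Pax8*, *Emx2*, *Gata3*, *Wnt9b*, *Cdh16*, *Wfdc2* and *Epcam*, are genes of the mesonephros and its duct. They were taken by symbol from a table of 24739 genes, and each of the 9 had 1 row. RNA-Seq libraries were made from whole testes of C57BL/6 mouse embryos at embryonic day (E) 14.5, with 1 pair of testes from 1 embryo in each library. Wild-type embryos (WT, n = 3) were compared with *Glis3* mutant embryos (Mutant, n = 4), which are homozygous for the *Glis3* zf5 allele. This allele is a deletion around exon 4 that disrupts DNA binding by the Krüppel-like zinc finger protein GLIS3, in every cell of the embryo rather than in 1 cell type. The labels call the tissue testis. The methods state that testes taken for RNA were parted from the mesonephros, in a passage that follows the tamoxifen experiment and does not name these libraries.

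The mesonephros is the transient embryonic kidney that lies along the gonad. Its duct, the Wolffian duct, is an epithelial tube that in males becomes the epididymis, vas deferens and seminal vesicle, and its tubules give rise to the efferent ducts that join the testis to the epididymis. The transcription factors LHX1, PAX2, PAX8, EMX2 and GATA3 form and maintain the duct, WNT9B is the signal it sends to the neighbouring mesenchyme, and CDH16, WFDC2 and EPCAM are proteins of its epithelium. Several of these genes are also used outside the duct: *Emx2* is needed in the surface epithelium of the early gonad, and *Epcam* is present on fetal germ cells. The paper's introduction counts *Lhx1* among genes of undifferentiated spermatogonia. It cites an earlier study in which these were suppressed in neonatal testes of a weaker *Glis3* mutant.

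In these testes the 9 genes fell into a part with clear signal and a part near 0. *Epcam*, *Emx2*, *Wfdc2*, *Lhx1* and *Pax8* had mean levels of at least 0.5 FPKM (a fragment level scaled to transcript length and library size) and entered the test across genes, and *Cdh16*, *Gata3*, *Wnt9b* and *Pax2* did not. None of the 5 genes tested passed an adjusted p of 0.05 (limma). *Lhx1* was lower in all 4 Mutant libraries than in all 3 WT libraries, with a mean of 0.703 ± 0.152 FPKM (SD, n = 4) against 1.63 ± 0.680 FPKM (SD, n = 3).

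Across the series, the sums of FPKM ranged from 694243 to 1018678 per library and the relative depth, read from the steps between low values, from 0.774 to 1 of that of WT replicate 1. How many fragments stand behind an FPKM value is not known. *Glis3* itself was 7.63, 6.89 and 2.91 FPKM in WT and 3.86, 3.26, 2.90 and 2.66 FPKM in Mutant, so that the Mutant range took in the library labelled wild-type replicate 3. Its log2 fold change was -0.69 (SE 0.28, adjusted p = 0.268 by limma) with that library and -1.09 (adjusted p = 0.00985 by limma) without it. FPKM includes exons that the mutant allele retains. Of 13988 genes tested, 1 (0.00715%) passed the threshold with all 7 libraries, *Cpsf4l*. Without the library labelled wild-type replicate 3, 720 (5.15%) passed it, none of them among the 9 genes. Leaving out any other single library gave 1 to 5 genes. Only the omission of wild-type replicate 3 was followed through the gene lists below, with its values known.

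The order of the mean levels over the 7 libraries was *Epcam*, *Emx2*, *Wfdc2*, *Lhx1*, *Pax8*, *Cdh16*, *Gata3*, *Wnt9b* and *Pax2*. FPKM is scaled to length, so levels can be set side by side between genes. *Epcam* stood at the 87.9th percentile of all genes in the table, *Emx2* at 65.7, *Wfdc2* at 53.5, *Lhx1* at 48.9 and *Pax8* at 46.3, while *Cdh16*, *Gata3* and *Wnt9b* lay between 31.4 and 36.8 and *Pax2* at 16.3. The ranges over libraries did not separate *Wfdc2* from *Lhx1*, *Lhx1* from *Pax8*, *Cdh16* from *Gata3* or *Gata3* from *Wnt9b*. The other neighbours were in the same order in 7 of 7 libraries, and the largest step among genes above 0.5 FPKM was the 4.67-fold difference between *Epcam* and *Emx2*.

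**Figure D1:**
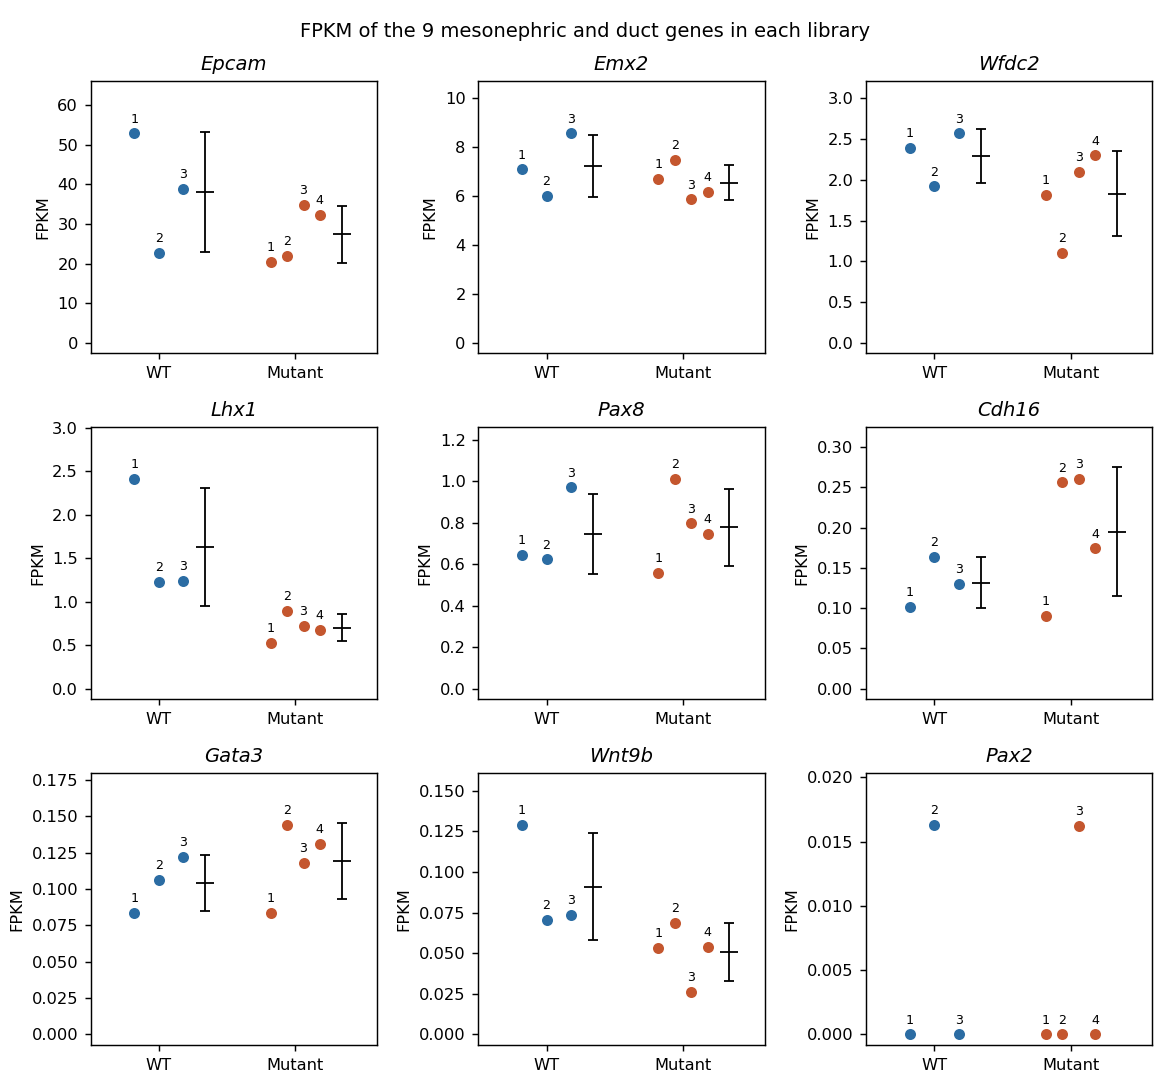
FPKM of each of the 9 genes (y axes, each on its own scale from 0) in WT and Mutant libraries, with replicate numbers above the points; horizontal ticks and bars are means ± SD, left out for *Pax2*. *Lhx1* and *Wnt9b* are the 2 genes whose groups do not overlap, and *Pax2* is above 0 in only 1 library of each group.

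*Lhx1* (GeneID 16869) encodes a LIM homeodomain transcription factor that the Wolffian duct needs to elongate and persist. In mm10 it covers positions 84519379 to 84525534 of chromosome 11 and is read from the minus strand. WT replicates 1 to 3 had 2.41, 1.23 and 1.24 FPKM, and Mutant replicates 1 to 4 had 0.524, 0.892, 0.722 and 0.673 FPKM. WT replicate 1 was far above all others, and the highest Mutant library was below the lowest WT library. Of all genes tested, 7.59% had groups that did not overlap in this direction. The Mutant mean was 0.432 times the WT mean, and the log2 fold change was -0.79 (SE 0.21, unadjusted p = 0.00474, adjusted p = 0.178 by limma). The exact two-sided permutation test gave p = 0.0286, the smallest value that 3 against 4 libraries can give. It was the 1 gene of the 5 with an unadjusted p under 0.05, as were 8.79% of all 13988 genes in the direction of a lower Mutant level. When the library labelled wild-type replicate 3 was dropped it became -0.91 (adjusted p = 0.0630 by limma), and when WT replicate 1, the highest library, was dropped -0.54 (adjusted p = 0.376 by limma).

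The start of *Lhx1* faces that of *Lhx1os*, a noncoding RNA gene transcribed away from it on the plus strand (chromosome 11, 84525660 to 84535831). The start of *Emx2* faces that of *Emx2os* in the same way (chromosome 19, 59425104 to 59458635, minus strand). The stretches between the start sites are shown because each lies between the divergent starts of a pair whose levels could be compared, 125 bases for *Lhx1* at chr11:84525535-84525659 (read on the minus strand) and 54 bases for *Emx2* at chr19:59458636-59458689 (plus strand), from RefSeq on GRCm38.p6, 5′ to 3′ toward the coding gene.
Lhx1: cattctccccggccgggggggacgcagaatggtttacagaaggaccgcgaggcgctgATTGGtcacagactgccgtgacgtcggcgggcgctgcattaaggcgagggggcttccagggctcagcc
Emx2: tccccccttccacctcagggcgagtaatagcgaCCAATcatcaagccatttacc
Capitals mark the letters CCAAT, the CCAAT box, which read ATTGG on the opposite strand. Each stretch held 1 match, with 63 bases between it and the *Lhx1* start and 16 bases between it and the *Emx2* start. Searched on both strands, 37.4% of all 32851 promoter windows in the RefSeq table (250 bases before to 50 bases after a start) held it. These windows are longer than the printed stretches, so this is not the share for stretches of their length. The windows of *Lhx1* and *Emx2* held 1 match each. The letters TGGGGGGT, a core of the element that GLIS proteins bind, were searched on both strands too. They were found in 1.53% of all windows and in 0 of the 11 windows of 8 of the genes (*Cdh16* had none in the table), so these windows do not contain those letters. The *Lhx1* window had 31 CpG and the *Emx2* window 26, against a median of 7 over all windows.

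*Lhx1os* was 1.94, 1.49 and 1.44 FPKM in WT and 0.719, 0.810, 1.37 and 1.21 FPKM in Mutant. As for *Lhx1*, every Mutant library was below every WT library, with the nearest values 1.37 and 1.44. Its log2 fold change was -0.49 (SE 0.18, unadjusted p = 0.0242, adjusted p = 0.236 by limma; exact permutation test, p = 0.0571), and it was examined after the values of *Lhx1* had been seen. The starts lie on opposite sides of the 125 bases printed above. The annotated spans of the pair do not overlap. The libraries did not keep strand, so only position tells the reads of the pair apart.

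A list of 18 germ cell genes is given beside *Lhx1* because most genes in it had lower mean levels in Mutant. It includes several that the study named as reduced in these same libraries, such as *Ddx4* and *Mael*. It leaves out *Boll*, *Hormad1* and *Lefty2*, reported there as unchanged, and *Stra8* and *Rec8*, reported as raised. Counts over the list therefore do not stand for germ cell genes in general. Of the 18 genes, 14 had an unadjusted p under 0.05 (limma) and were lower in Mutant, against 8.79% of all genes tested. None passed the adjusted threshold (limma), and 12 passed it and were lower without the library labelled wild-type replicate 3, against 3.99% of all genes tested. The summed level of the list in that library, given below, lay inside the Mutant range. Leaving it out therefore favoured calls of a lower level in Mutant. The median log2 fold change was -0.97 with all libraries (range -1.55 to 0.21), against 0.01 over all genes tested. *Ddx4*, an RNA helicase of germ cells, had a log2 fold change of -1.08 (adjusted p = 0.136 by limma). The summed FPKM of the list was 1611, 1355 and 665 in WT and 762, 631, 613 and 542 in Mutant, with the library labelled wild-type replicate 3 inside the Mutant range. A few abundant genes make up most of this sum. In 5 of the 18 genes the groups did not overlap, so that in them, as for *Lhx1*, this library lay above every Mutant library. In these bulk libraries fewer cells of a type and less RNA per cell cannot be told apart. The study's germ cell counts in sections at E14.5 were reported as not different between the genotypes. Its discussion nevertheless dates the first detected loss to E14.5. The part of germ cells in the *Lhx1* difference was not tested.

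The 5 genes whose log2(FPKM + 0.5) was most like that of *Lhx1* over the 7 libraries were *Snx27* (Pearson r = 0.998), *Sgol2a* (0.992), *Strbp* (0.991), *A830080D01Rik* (0.987) and *Elavl2* (0.985). These were the top of 13988 genes, so that high values are selected, and all points share their libraries. *Snx27*, a sorting nexin of endosomes, was 18.1, 14.8 and 14.7 FPKM in WT and 12.3, 13.5, 13.1 and 12.7 FPKM in Mutant. Its order over libraries was that of *Lhx1* in having WT replicate 1 on top and Mutant replicate 1 at the bottom, with smaller differences.

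**Figure D2:**
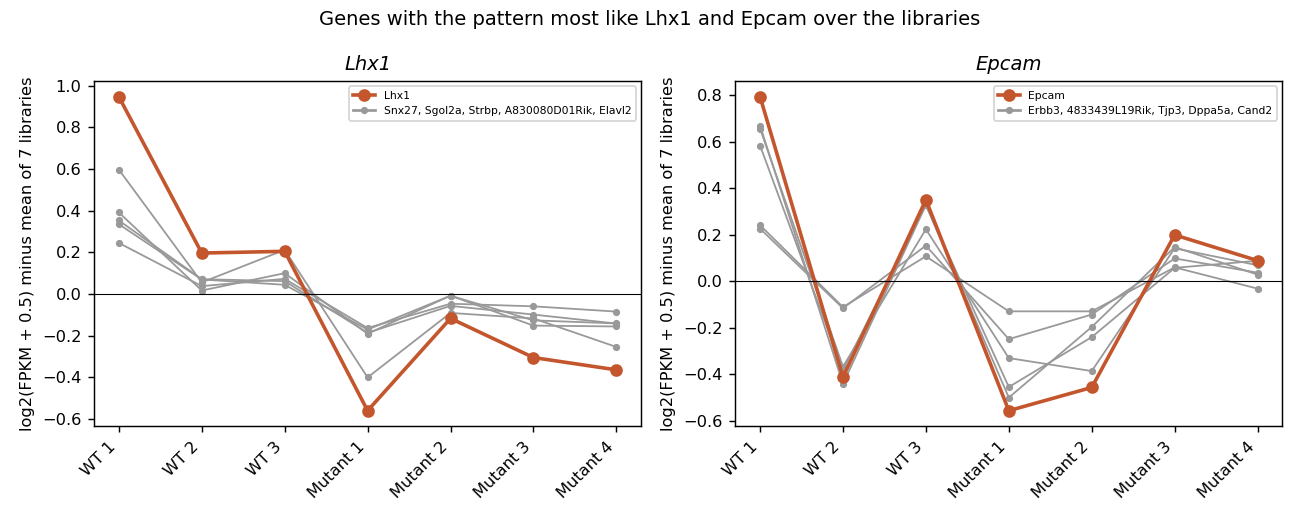
log2(FPKM + 0.5) minus its mean over the 7 libraries (y axis) for *Lhx1* (left) and *Epcam* (right) in orange and the 5 genes most like each in grey, by library; lines join libraries only to guide the eye. *Lhx1* and its 5 genes are highest in WT replicate 1 and all Mutant values lie below 0, whereas *Epcam* is low in WT replicate 2 and in Mutant replicates 1 and 2.

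*Pax8* encodes a paired-box factor of the duct, kidney and thyroid that acts with PAX2. It lies on chromosome 2 from 24420551 to 24475599, on the minus strand. Its level was 0.644, 0.623 and 0.970 FPKM in WT and 0.559, 1.01, 0.797 and 0.745 FPKM in Mutant. The groups overlapped throughout, and the library labelled wild-type replicate 3 and Mutant replicate 2 were the highest. The means were 0.746 ± 0.195 (SD, n = 3) and 0.778 ± 0.186 FPKM (SD, n = 4), with a log2 fold change of 0.04 (SE 0.16, adjusted p = 0.931 by limma) that turned below 0 when single libraries were left out. The ratio of *Lhx1* to *Pax8*, calculated after the values had been seen, was 3.75, 1.97 and 1.28 in WT and 0.936, 0.881, 0.906 and 0.904 in Mutant. *Lhx1* was thus above *Pax8* in 3 of 3 WT libraries and in 0 of 4 Mutant libraries.

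*Pax2* (chromosome 19, 44757394 to 44837869, plus strand), the paralog of *Pax8* that defines the duct epithelium from its first appearance, was listed at 0 in 5 of 7 libraries. It was 0.0163 FPKM in WT replicate 2 and 0.0162 FPKM in Mutant replicate 3. The exact permutation test gave p = 0.714, so no difference was detectable at these levels.

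*Gata3* (chromosome 2, 9857078 to 9878600, minus strand), a zinc finger factor that guides the growing duct, was 0.0837, 0.106 and 0.122 FPKM in WT and 0.0836, 0.144, 0.118 and 0.131 FPKM in Mutant. The groups overlapped and did not differ beyond their spread (exact permutation test, p = 0.457). *Gata3* and *Pax2* both overlap transcripts of the opposite strand, whose reads cannot be told apart from theirs.

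*Wnt9b* (chromosome 11, 103727363 to 103749821, minus strand), the ligand of the duct, was 0.129, 0.0703 and 0.0735 FPKM in WT and 0.0534, 0.0689, 0.0263 and 0.0540 FPKM in Mutant. The groups did not overlap, as in 7.59% of the genes that passed the filter, but the lowest WT value of 0.0703 and the highest Mutant value of 0.0689 nearly met. The difference in mean log2(FPKM + 0.5) was -0.1 (exact permutation test, p = 0.0571).

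*Emx2* encodes a homeodomain factor that the duct and the gonad need. It lies on chromosome 19 from 59458690 to 59465357, on the plus strand. It was 7.09, 6.02 and 8.56 FPKM in WT and 6.69, 7.47, 5.86 and 6.18 FPKM in Mutant, and the groups overlapped. The means of 7.22 ± 1.27 (SD, n = 3) and 6.55 ± 0.699 FPKM (SD, n = 4) gave a log2 fold change of -0.12 (SE 0.13, adjusted p = 0.652 by limma; exact permutation test, p = 0.457), and 0.0 without the library labelled wild-type replicate 3. Its divergent neighbour *Emx2os* was 1.42, 1.69 and 2.28 FPKM in WT and 2.10, 2.21, 1.79 and 1.95 FPKM in Mutant, also overlapping (log2 fold change 0.14, SE 0.14, adjusted p = 0.637 by limma). At this pair neither transcript passed the threshold, and the difference between the *Emx2* pair and the *Lhx1* pair was not tested.

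*Epcam* encodes a transmembrane adhesion protein of epithelial and germ cells. It lies on chromosome 17 from 87635979 to 87651127, on the plus strand. Its level was 52.8, 22.6 and 38.7 FPKM in WT and 20.4, 21.9, 34.8 and 32.2 FPKM in Mutant. WT replicate 2 lay among the Mutant libraries, and the spread within each group was wide. The means were 38.0 ± 15.1 (SD, n = 3) and 27.3 ± 7.24 FPKM (SD, n = 4), with a log2 fold change of -0.42 (SE 0.29, adjusted p = 0.482 by limma; exact permutation test, p = 0.286). Without WT replicate 1 it was -0.15 and without WT replicate 2 it was -0.75, so that single WT libraries decided its size. Germ cell genes went in both directions in WT replicate 2. The sum of the list there was 1355 FPKM, between the other WT libraries. *L1td1* (11.0, 2.45 and 9.60 FPKM in WT), *Prdm14* (4.92, 1.80 and 3.41 FPKM in WT), *Prdm1* and *Tfap2c* were lowest in it among WT, as *Epcam* was. In contrast, *Mael* (67.1, 128 and 18.8 FPKM in WT), *Dppa4*, *Dnd1*, *Nanos2*, *Nanos3*, *Mov10l1*, *Tdrd1* and *Piwil2* were highest in it of all libraries. These genes were named after their values had been seen. The part of germ cells in the *Epcam* values was not tested.

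The genes most like *Epcam* over the libraries were *Erbb3* (Pearson r = 0.991), *4833439L19Rik* (0.980), *Tjp3* (0.979), *Dppa5a* (0.977) and *Cand2* (0.976). *Tjp3* encodes a tight junction protein, and *Dppa5a* is a gene of pluripotent and germ cells. *Dppa5a* was 325, 166 and 272 FPKM in WT and 153, 189, 240 and 221 FPKM in Mutant, with WT replicate 2 low as for *Epcam*. These are descriptions over 7 shared libraries.

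*Wfdc2* encodes a secreted four-disulfide-core protein of the epididymis and other ducts. It lies on chromosome 2 from 164562716 to 164568506, on the plus strand. It was 2.39, 1.92 and 2.57 FPKM in WT and 1.82, 1.10, 2.10 and 2.30 FPKM in Mutant. The groups overlapped, and Mutant replicate 2 was the lowest. The means were 2.29 ± 0.333 (SD, n = 3) and 1.83 ± 0.524 FPKM (SD, n = 4), with a log2 fold change of -0.28 (SE 0.2, adjusted p = 0.487 by limma; exact permutation test, p = 0.286). Without Mutant replicate 2 it was -0.11. The genes most like it were *5830454E08Rik* (Pearson r = 0.982), *Isy1* (0.982), *Apopt1* (0.978), *5033406O09Rik* (0.978) and *Bola2* (0.977).

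*Cdh16* (chromosome 8, 104601915 to 104624396, minus strand), the kidney-specific cadherin of tubule and duct epithelium, was 0.101, 0.164 and 0.130 FPKM in WT and 0.0898, 0.256, 0.260 and 0.174 FPKM in Mutant. The Mutant group held both the lowest and the highest library, and the groups did not differ beyond their spread (exact permutation test, p = 0.286). Summed over *Cdh16*, *Gata3*, *Wnt9b* and *Pax2*, the level was 0.313, 0.356 and 0.325 FPKM in WT and 0.227, 0.469, 0.420 and 0.359 FPKM in Mutant, again overlapping.

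**Figure D3:**
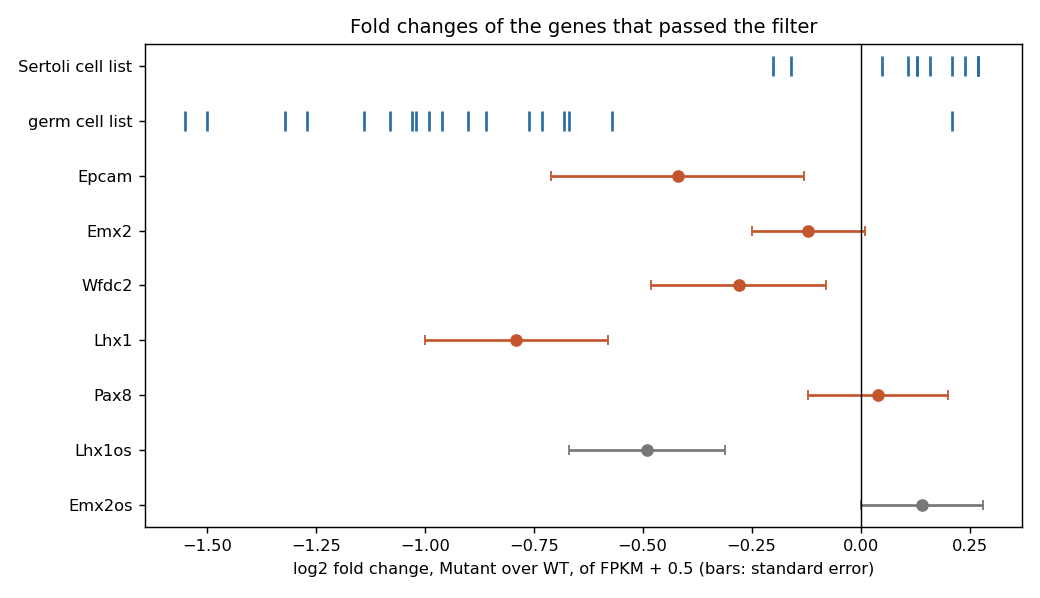
log2 fold change of FPKM + 0.5, Mutant over WT (x axis), with standard errors, for the 5 genes tested (orange) and the divergent neighbours *Lhx1os* and *Emx2os* (grey); blue ticks are single genes of the germ cell and Sertoli cell lists. *Lhx1* at -0.79 lies farthest from 0 among the 5, with *Pax8* at 0.04. All 5 lie within the span of the germ cell genes (-1.55 to 0.21), so that span does not set *Lhx1* apart.

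Wider lists of the same structures were set beside the 9 genes, with no further gene past the adjusted threshold. Of 30 genes of duct epithelium, 20 were tested, 1 had an unadjusted p under 0.05 with a higher level in Mutant (8.21% of all genes tested) and 2 with a lower level (8.79%), and the median log2 fold change was 0.01. Their summed FPKM was 150 to 163 in WT and 147 to 165 in Mutant. Genes shared by many epithelia led the list, among them *Spint2*, a protease inhibitor at 44.3 to 51.2 FPKM in WT, and the keratins *Krt18* (23.0 to 27.5 FPKM) and *Krt7* (16.2 to 18.9 FPKM). The transcription factor *Sim1*, picked for its low values, was at most 0.0408 FPKM.

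*Esrp1*, an epithelial splicing regulator, was 7.99, 5.20 and 4.55 FPKM in WT and 2.28, 2.27, 3.21 and 2.94 FPKM in Mutant. Its groups did not overlap, with a log2 fold change of -0.99 (SE 0.19, adjusted p = 0.136 by limma). *Cdh1*, the epithelial cadherin that germ cells carry too, was lower in mean with overlapping groups (log2 fold change -0.74, adjusted p = 0.229 by limma). *Cldn7*, a tight junction claudin, was higher without overlap (log2 fold change 0.44, adjusted p = 0.211 by limma), as were 7.31% of all genes tested. Without the library labelled wild-type replicate 3, 3 of the 20 passed the threshold and were lower in Mutant, as were 3.99% of all genes tested. These were *Esrp1* (log2 fold change -1.14) and, named after their values had been seen, the epithelial factors *Grhl2* (-1.04) and *Tfcp2l1* (-1.43, adjusted p = 0.00985 by limma).

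Of 16 genes of mesonephric tubules and efferent ducts, 8 were tested, and 1 of these had an unadjusted p under 0.05, *Slc9a3r1*, a scaffold of brush borders, with a log2 fold change of -0.28 (adjusted p = 0.248 by limma, and 0.0425 without the library labelled wild-type replicate 3). Of all genes tested, 8.79% were lower in Mutant at an unadjusted p under 0.05. The median over the 8 was 0.01, and the summed FPKM of the list was 59.5 to 80.6 in WT and 63.2 to 69.9 in Mutant. *Esr1*, the estrogen receptor of efferent ducts, was 3.47 to 5.11 FPKM in WT and 4.45 to 5.11 FPKM in Mutant. *Lrp2*, the endocytic receptor megalin, was 0.956 to 1.49 FPKM over all libraries, and its groups overlapped.

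Of 26 genes of mesonephric mesenchyme and induction, 20 were tested. At an unadjusted p under 0.05, 2 were higher in Mutant (8.21% of all genes tested were) and 1 was lower (8.79%). *Slit2*, a guidance ligand, was 22.5 to 23.3 FPKM in WT and 25.2 to 27.5 FPKM in Mutant (log2 fold change 0.17, adjusted p = 0.214 by limma). *Inhba* encodes the activin subunit that the mesonephric mesenchyme sends to the coiling duct. It was 9.01, 9.08 and 5.04 FPKM in WT and 11.9, 11.4, 10.3 and 10.7 FPKM in Mutant. Its log2 fold change was 0.54 (SE 0.18, adjusted p = 0.214 by limma). Which cells of these whole testes its reads came from was not tested. *Etv4*, a target of FGF and RET signals, had a log2 fold change of -0.38 (adjusted p = 0.214 by limma). *Lgr4*, a receptor for R-spondins, was the most abundant gene of the list, at 47.8 to 59.8 FPKM in WT. Among 11 genes of coelomic and surface epithelium, 9 were tested and 0 had an unadjusted p under 0.05 (limma). *Upk3b*, a mesothelial marker, was 26.8 to 41.6 FPKM in WT.

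**Figure D4:**
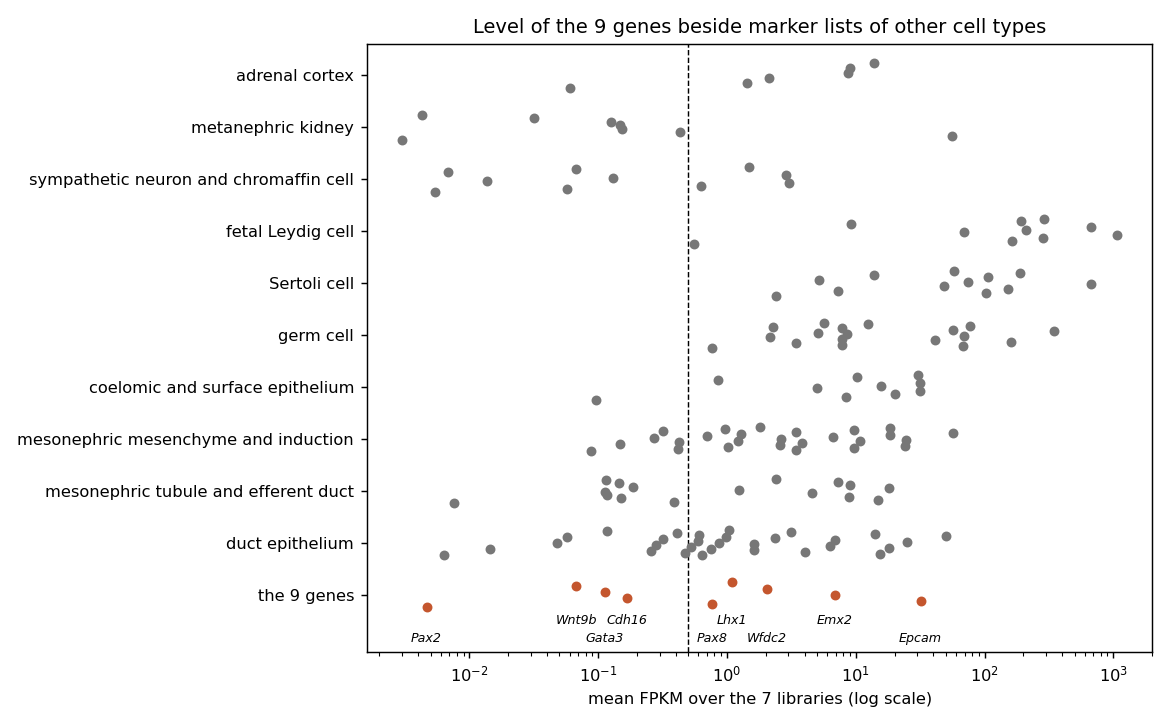
Mean FPKM over the 7 libraries (x axis, log scale) of the 9 genes (orange, named) and of each gene in 10 lists of other cell types and structures (grey); the dashed line is the filter at 0.5 FPKM. *Cdh16*, *Gata3*, *Wnt9b* and *Pax2* lie left of the line, while all 18 germ cell, 12 Sertoli cell and 10 Leydig cell genes lie right of it.

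Other cells of the testis and of neighbouring organs were covered by 5 lists. Of 12 Sertoli cell genes, 2 had an unadjusted p under 0.05 and were higher in Mutant, and of 10 fetal Leydig cell genes 6 were higher, with medians of 0.14 and 0.42. At this unadjusted p, 8.21% of all genes tested were higher in Mutant and 8.79% were lower. The summed Leydig list was 1956 to 3118 FPKM in WT and 2966 to 3648 FPKM in Mutant. Of 6 adrenal cortex genes, 5 were tested and 3 were higher, and of 10 sympathetic neuron and chromaffin cell genes 4 were tested, with 1 higher and 1 lower. Of 8 genes of the metanephric kidney, 1 passed the filter, *Cited1* (log2 fold change 0.41, adjusted p = 0.163 by limma), and the kidney genes *Nphs1* and *Aqp2* had mean levels under 0.5 FPKM. No gene of these lists passed the adjusted threshold with all libraries (limma). Without the library labelled wild-type replicate 3, 2 Sertoli cell, 1 Leydig cell and 1 adrenal cortex gene passed it as higher in Mutant and 1 sympathetic neuron and chromaffin cell gene as lower. Of all 13988 genes tested, 162 passed it as higher without that library and 3.99% as lower. The part of these cells in the values of the 9 genes was not tested.

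A separate readout of the same genes came from reads that mapped uniquely to retrotransposon loci lying inside 1 gene, most of them in introns. *Lhx1* and *Emx2* contain no such locus. *Pax2*, *Gata3*, *Wnt9b*, *Wfdc2* and *Cdh16* held 25, 23, 14, 11 and 5 reads over all 7 libraries, too few to compare. *Pax8* held 173 reads and *Epcam* 504.

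In *Pax8* the reads were 22, 16 and 26 in WT and 31, 26, 26 and 26 in Mutant, and 166 of them lay in introns. As CPM (counts scaled to the library's TMM-adjusted reads at loci inside single genes, 2809971 to 3946273), they were 5.57, 5.43 and 7.65 in WT and 10.4, 9.25, 9.16 and 8.65 in Mutant, with every Mutant library above every WT library. Of 12267 genes tested, 5.32% had groups that did not overlap in this direction. The means were 6.22 ± 1.24 (SD, n = 3) and 9.37 ± 0.753 CPM (SD, n = 4), with a log2 fold change of 0.59 (SE 0.23, unadjusted p = 0.0258, adjusted p = 0.331 by edgeR) and p = 0.0286 in the exact permutation test. In the whole test, 6.65% of genes were higher in Mutant with an unadjusted p under 0.05, and 1 gene (0.00815%), *Rimbp2*, passed the adjusted threshold. The FPKM of *Pax8*, which counts exons, had a log2 fold change of 0.04.

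A transcript on the opposite strand, *Gm13415* (chromosome 2, 24440418 to 24486855), covers part of *Pax8*, and strand was not kept. Loci within it held 64 reads, with means of 2.70 ± 0.760 CPM (SD, n = 3) in WT and 3.10 ± 0.320 CPM (SD, n = 4) in Mutant (exact permutation test, p = 0.343). Loci of *Pax8* outside it held 109 reads, at 3.04, 3.40 and 4.12 CPM in WT and 7.40, 5.69, 6.34 and 5.66 CPM in Mutant. There the groups did not overlap, at 3.52 ± 0.549 (SD, n = 3) and 6.27 ± 0.816 CPM (SD, n = 4; exact permutation test, p = 0.0286).

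**Figure D5:**
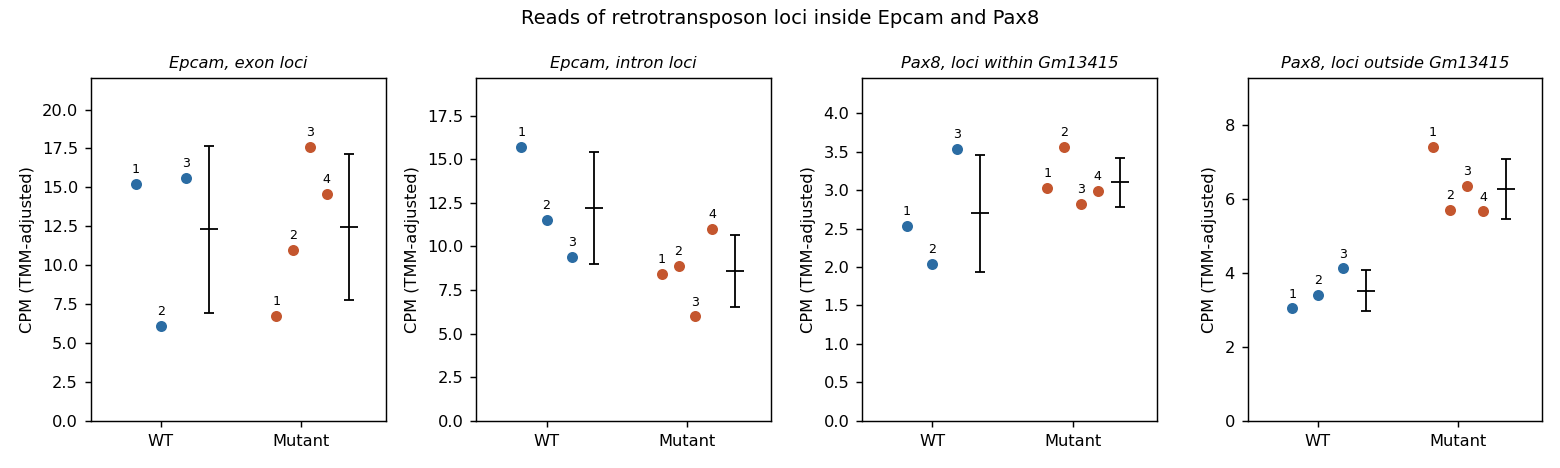
CPM of retrotransposon loci (y axes from 0, scaled to TMM-adjusted library size) in WT and Mutant libraries, with replicate numbers and means ± SD, for *Epcam* loci in exons and introns and *Pax8* loci within and outside the opposite-strand *Gm13415*. The groups separate in the last panel, where WT is 3.04 to 4.12 and Mutant 5.66 to 7.40.

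In *Epcam* the reads were 122, 52 and 85 in WT and 45, 56, 67 and 77 in Mutant. The CPM were 30.9, 17.7 and 25.0 in WT and 15.1, 19.9, 23.6 and 25.6 in Mutant, with overlapping groups (log2 fold change -0.23, SE 0.22, adjusted p = 0.714 by edgeR). Of the 504 reads, 276 fell on 2 SINE loci that touch exons (PB1D9 in the first exon of a transcript variant, ID_B1 in the last exon) and can be fragments of the mRNA that FPKM also counts. Their CPM were 15.2, 6.11 and 15.6 in WT and 6.73, 11.0, 17.6 and 14.6 in Mutant, with overlapping groups (means 12.3 and 12.5; p = 0.857 in an exact permutation test). The 228 reads in introns gave 15.7, 11.5 and 9.41 CPM in WT and 8.41, 8.90, 5.99 and 11.0 CPM in Mutant, at 12.2 ± 3.20 (SD, n = 3) and 8.57 ± 2.05 CPM (SD, n = 4; exact permutation test, p = 0.143). Over the 7 libraries, the FPKM of *Epcam* and the CPM of all its loci had a Pearson r of 0.943 (exact permutation test, p = 0.00258, adjusted p = 0.0103 over 4 relations) and a Spearman rho of 0.857 (exact permutation test, p = 0.0238, adjusted p = 0.0952). Without the 2 libraries farthest from the median FPKM, r was 0.881. For intron loci alone r was 0.557 (exact permutation test, p = 0.195), and it was -0.380 without those 2 libraries, so that this relation rested on them. For *Pax8* r was 0.210 (exact permutation test, p = 0.639).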

How the data were processed

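RNA-Seq was performed on rRNA-depleted, unstranded libraries of 7 E14.5 testis pairs, grouped by GEO's labels. The authors aligned reads to mm10 with TopHat2 2.0.12, and the deposited FPKM per RefSeq gene were made with Cuffquant and Cuffnorm, library scaling included. The deposited counts per retrotransposon locus were made by the authors with HTSeq from uniquely mapped reads and are not normalized, with 3454317 to 4670830 reads per library. In the headers of both tables, 6 names stood above 7 value columns because a tab is missing between WT replicate 3 and Mutant replicate 1, and the fused name was read as both. The authors' comparison used Cuffdiff, which was not rerun because it needs aligned reads.

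In R 4.3.3, limma 3.58.1 (trend, two-sided, Benjamini-Hochberg, threshold 0.05) was applied to log2(FPKM + 0.5) of genes whose mean reached 0.5 FPKM. This scale understates fold changes of low genes. Loci lying inside 1 gene span were summed, and sums with a mean of at least 10 reads were tested with edgeR 4.0.16 (quasi-likelihood, TMM). For single values, exact two-sided permutation tests enumerated 35 splits in SciPy 1.17.1 (smallest p 0.0667 without 1 WT library, 0.05 without 1 Mutant library). The tests were checked on simulated data with 200 genes changed by 1.5 log2 units. There limma called 193 of them with 10 false calls, and edgeR 187 with 12. Noise was drawn independently for each gene, with no deviation shared by a whole library. The change was larger than that of *Lhx1* (-0.79), so these counts do not show how often changes of its size would be called. Each library is 1 embryo, so the spread is between embryos.

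The 9 genes and the 10 lists were chosen with earlier results of these data known. Names came from the 9 genes, the 3 genes of smallest p and the 3 of highest mean in each list, the 5 genes most like each of the 3 members of widest range, and *Glis3*; other names are marked where used. Alternatives were pseudocounts of 0.1 and 1, other filters and scalings, no trend, array weights, a replicate block, DESeq2 1.42.0 for reads, and leaving out each library.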

Additional observations from a re-analysis of the deposited data

Results flagged for a closer look

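*Pax2* in the Mutant libraries was marked because 1 of the 4 stood apart from the rest. It was listed at 0 in Mutant replicates 1, 2 and 4 and at 0.0162 FPKM in Mutant replicate 3, so that the gap of this library took up the whole range of the group (gap over range of 1, beyond Dixon's critical value). With every other library of the group at 0, any value above 0 gives this result, so the mark carries no further information. Chance marks about 1 in 20 groups, a rate that does not hold for values at the floor, and 13 groups of 4 were examined. WT replicate 2 had nearly the same value, 0.0163 FPKM.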

How the results depend on the processing

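Over the 11 values of the 9 genes, 148 of 152 alternatives kept the direction and the side of the threshold, 0 brought a value past it, and 4 turned the sign of values near 0. Values of 0.0, such as *Emx2* without wild-type replicate 3, were counted as kept. For *Cdh16*, *Gata3*, *Wnt9b* and *Pax2* the exact permutation test cannot give a p under 0.05 once a library is left out. Those alternatives could not have passed the threshold and do not count toward stability. *Pax8* FPKM turned to -0.02 without WT replicate 1, -0.03 without WT replicate 2 and -0.05 without Mutant replicate 2, and *Pax2* to 0.012 without WT replicate 2; the cause was not tested. On leaving out 1 library *Pax8* ranged from -0.05 to 0.16 and *Pax2* from -0.015 to 0.012. The log2 fold change of *Lhx1* ranged from -1.06 (pseudocount 0.1) to -0.54 (without WT replicate 1), with adjusted p from 0.0630 to 0.376 (limma), and that of *Pax8* retrotransposon reads from 0.51 to 0.76, with adjusted p from 0.216 to 0.692.

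The number of genes past the threshold moved far more. For FPKM it was 1, and 4 with no filter, 3 with quantile normalization, and 1 to 720 on leaving out 1 library, with 720 without the library labelled wild-type replicate 3. For retrotransposon reads it was 1, and 56 with DESeq2, 47 with no filter and 0 to 138 on leaving out 1 library, with 138 without that same library and 21 without WT replicate 2. Leaving out 2 libraries together (wild-type replicate 3 and Mutant replicate 1, the fused header pair, chosen after seeing the data) gave 473 and 102.

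Whether replicate numbers pair the libraries is not known, and the main tests used no pairing. The deviations of same-numbered libraries correlated at 0.198, -0.177 and 0.229, and 4 of 6 libraries correlated best with their own number. With 3 pairs these values cannot decide it. With a replicate block 0 genes passed for FPKM (limma; 1726 at an unadjusted p under 0.05) and 0 for retrotransposon reads (edgeR; 1143), and *Lhx1* was -0.78 (adjusted p = 0.353 by limma). Depth limits *Cdh16*, *Gata3*, *Wnt9b* and *Pax2*, which lay below the filter and had no test across genes.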

Other observations

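*Aatf*, a neighbour of *Lhx1* on chromosome 11, was 52.0, 43.1 and 43.3 FPKM in WT and 40.5, 38.0, 37.6 and 36.7 FPKM in Mutant. It was examined after the values of *Lhx1* had been seen. Its groups did not overlap, with a log2 fold change of -0.26 (adjusted p = 0.193 by limma), as in 7.59% of all genes tested in this direction. Retrotransposon reads inside *Glis3* had a log2 fold change of -0.88 (SE 0.16, adjusted p = 0.0827 by edgeR) and DESeq2 gave an adjusted p of 0.000333.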
